A study of Mus musculus with 3 samples.

Results

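Thpo, Kitl, Cxcl12, Fn1, Ptn, Igfbp2 and Bmp4 encode signals that the liver of the embryo offers to the blood cells living in it, and their chromatin is described here in DNase-seq of whole liver from mouse embryos of 13.5 days. The 7 genes were chosen by symbol, with no value in the rule, but with earlier results of these data known. All 7 were found among the 21911 protein-coding genes of the GENCODE M21 annotation of mm10. In this assay DNase I cuts open chromatin, and the density of cuts marks promoters and regulatory elements. There was 1 group. Its embryos were of the strain C57BL/6N,129 and homozygous for a mutation at the beta-globin genes that removes HS2 and HS3, which are elements of the beta-globin control region. The group has 3 libraries that the labels number as biological replicates, all under 1 donor record, and the labels do not say whether a library came from 1 embryo or from a pool. No liver with an intact control region was analysed here, so values are described over the 3 replicates and no genotypes were compared.

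During development blood stem and progenitor cells colonise the liver, multiply there and leave for the bone marrow. Hepatoblasts, stellate and other perivascular cells and the vessel lining supply soluble factors and matrix, which act on receptors of the blood cells. Thrombopoietin (Thpo) and stem cell factor (Kitl) sustain stem cells, the latter through Kit, the chemokine Cxcl12 holds cells through Cxcr4, and fibronectin (Fn1) anchors them through integrins. Pleiotrophin (Ptn), the IGF-binding protein Igfbp2 and the growth factor Bmp4 are further secreted signals with effects on blood stem cells.

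A promoter is called open in a replicate where a deposited peak comes within 500 bp of one of the gene's annotated starts. The strongest of these peaks gives the promoter signal, a cut density that the authors normalized to read depth, and 0 means that no peak is listed. Each replicate has a shorter and a longer peak list; the shorter one is used unless the longer is named. A peak over 1 kb from every annotated start of any gene is called distal. Peaks that shared 1 bp across replicates were merged into 1 region, and a region with a peak in each of the 3 replicates is called common. A footprint is a short stretch that is cut less than its surroundings.

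Only Kitl and Fn1 of the 7 genes had an open promoter in all 3 replicates, beside 50.9% of all protein-coding genes. Both signals were low for an open promoter. Thpo, Ptn and Igfbp2 had no promoter peak in any replicate, and Cxcl12 and Bmp4 had one in replicate 2 alone. Common distal regions were found near Thpo alone, where there were 2. This is 1 of 7 genes, beside 49% of all protein-coding genes with at least 1. In the longer list 3 more regions were common, and all 5 held a match to a CTCF consensus, 1 of them to a looser form of it. Of the genes for the receptors of these signals 13 of 18 had an open promoter in all 3 replicates, and of those for the proteins that carry them inside the cell 13 of 13. Both counts stand beside the same 50.9%, and neither was tested against that of the 7 genes.

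The sequences below carry those observations, read from GRCm38 (mm10). The first is the 220 bases before the first start of Fn1, to the end of the peak in replicates 1 and 3, on the minus strand at chr1:71653201-71653420. They lie in no Fn1 exon, but in an exon of Apol7d, a gene annotated across the Fn1 start. The Kitl stretches are 30 bases each of the Kitl 5′ untranslated region, on the plus strand at chr10:100015734-100015763 and chr10:100015793-100015822. Capitals mark bases that lie in a footprint in at least 2 replicates.
Fn1 upstream: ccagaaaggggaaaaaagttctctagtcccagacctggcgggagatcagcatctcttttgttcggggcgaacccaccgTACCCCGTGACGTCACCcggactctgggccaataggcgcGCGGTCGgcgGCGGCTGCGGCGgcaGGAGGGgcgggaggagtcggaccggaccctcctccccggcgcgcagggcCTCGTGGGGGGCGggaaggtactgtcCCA
Kitl, first stretch: ccccgaggctCCGGAAGGGAAGGAGgcgtg
Kitl, second stretch: ctgtataAAAAGCGCTGGCGgcgcagcaGC

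The next sequences are shown because the distal regions that recurred over the replicates have a CTCF consensus match in common. CTCF is a DNA-binding protein that marks boundaries and loop anchors of chromatin. The consensus searched on both strands was CC, 3 bases of any kind, AG, 1 base of any kind and GGGC, and the looser form, chosen after the footprints had been seen, allows 2 free bases after AG and ends in GGC. Each stretch of 30 bases is written along the strand of its match, and capitals mark the 12 matching letters. The Thpo matches are at chr16:20702666-20702695 (plus strand) and chr16:20765347-20765376 (minus strand). Those of Cxcl12 are at chr6:117166984-117167013 and chr6:117174046-117174075 and that of Igfbp2 is at chr1:72865997-72866026, all on the plus strand. The Igfbp2 stretch matches the looser form only. A second match to the looser form in that region, at chr1:72865995-72866006, is not printed. It had footprints in 2 replicates, and the printed match had them in 3.
Thpo, downstream: catcgaggaCCACAAGGGGGCaacccgggg
Thpo, upstream: gtgaagccgCCACCAGGGGGCagcagccct
Cxcl12, upstream: gagataagaCCACCAGAGGGCgccggagcc
Cxcl12, inside the gene: agggcttgtCCTGCAGGGGGCgctcctcga
Igfbp2, downstream: tctaggtggCCAGTAGGTGGCgcaggagac

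Kitl, on the plus strand at chr10:100015630-100100416, encodes stem cell factor, the ligand of the receptor Kit. Its promoter signals in replicates 1, 2 and 3 were 1.08, 1.10 and 0.882, which average to 1.02 ± 0.120 (SD, n = 3). The 3 values lay close together, and replicate 3 was the lowest. The deposited signals are whole multiples of a step that differs between libraries. If 1 step is 1 cut, the Kitl values rest on 86, 131 and 117 cuts, with exact 95% Poisson intervals of 0.867 to 1.34, 0.916 to 1.30 and 0.729 to 1.06. These intervals cover counting error only, and they overlap among all 3 replicates. Among the 11144 genes open in all 3 replicates, Kitl stood at percentile 5.31 by mean signal, where the median gene had 5.59.

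Fn1, on the minus strand at chr1:71585520-71653200, encodes fibronectin, a matrix protein to which blood cells attach. Signals at its promoter were 1.99, 2.74 and 1.57 in replicates 1 to 3, averaging 2.10 ± 0.588 (SD, n = 3). Replicate 2 was the highest and replicate 3 the lowest. Read as cuts, the values rest on 158, 327 and 209 cuts, with intervals of 1.69 to 2.33, 2.45 to 3.05 and 1.37 to 1.80 (95%, counting error only). Replicate 2 was also the highest over the regions common to all 3 replicates, with a median signal of 2.79 against 2.36 and 2.35 in replicates 1 and 3, and its Fn1 value was not tested apart from that. Fn1 stood at percentile 16.8 of the open genes. Its lowest replicate was above the highest of Kitl, so the order of the 2 genes was the same in each replicate. A weaker second peak lay inside Fn1 in each replicate, with signals of 1.03, 0.753 and 0.595. All Fn1 promoter peaks at the start also cover exons of Apol7d, so the openness of the 2 genes cannot be told apart.

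The other 5 genes had no peak in all 3 replicates in the shorter list. Cxcl12, on the plus strand at chr6:117168535-117181367, encodes the chemokine that binds Cxcr4 and Ackr3. Its promoter was at 0.946 in replicate 2 and had no peak in replicates 1 and 3, while the longer list added a peak of 0.618 in replicate 3. The order of replicates 2 and 3 was thus kept, and replicate 1 had no peak in either list. Bmp4, on the minus strand at chr14:46383520-46390669, encodes a secreted ligand of BMP receptors. Its peak of 0.661 in replicate 2 lay 3.20 kb inside the gene and not at the first start. It was 32 bp from the start of an internal transcript and covered a start of the gene Gm15222. In the longer list that site was present in all 3 replicates, at 0.668, 0.661 and 0.595, so the 3 replicates differed little at this site. There the replicate 1 peak was 108 bp from the internal Bmp4 start and 7 bp from that of Gm15222, and the replicate 3 peak covered the Bmp4 one. The openness of Bmp4 and Gm15222 therefore cannot be told apart.

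Thpo, on the minus strand at chr16:20724454-20734511, encodes the hormone of platelet production and stem cell maintenance. Its only promoter peak was 0.694 in the longer list of replicate 2, at an internal start 3.88 kb from the first. Ptn, on the minus strand at chr6:36714929-36810220, encodes a heparin-binding growth factor, and its only peak was 0.234 in the longer list of replicate 2. Igfbp2, on the plus strand at chr1:72824503-72852474, encodes a protein that binds insulin-like growth factors. It had peaks of 0.339 and 0.347 in the longer list of replicate 3 alone, on either side of its start. None of these 3 promoters was therefore listed in more than 1 replicate.

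**Figure D1:**
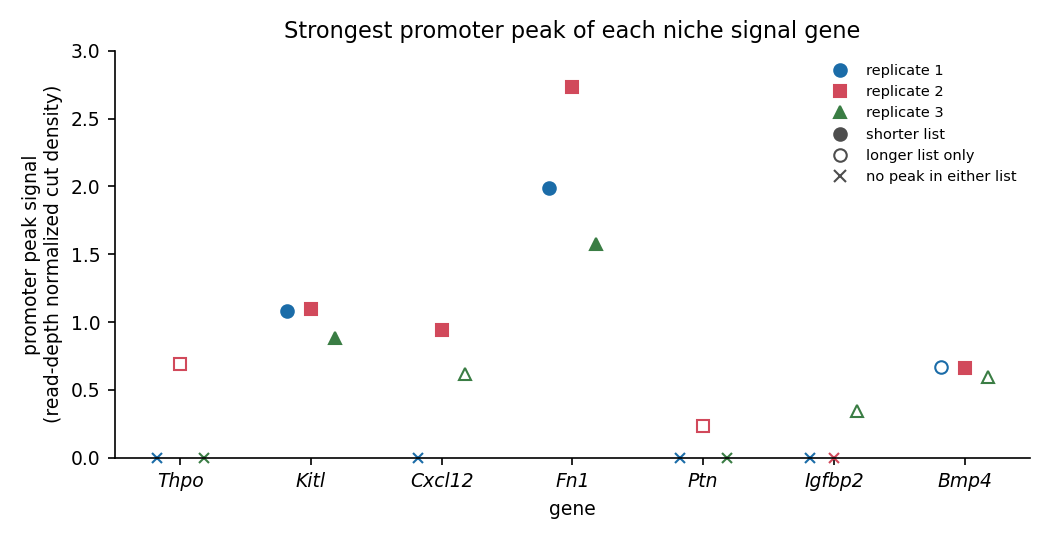
Signal of the strongest promoter peak (vertical axis, cut density normalized to read depth) for each gene (horizontal axis) in the 3 replicates. Filled symbols are in the shorter list, open symbols in the longer list only, and crosses at 0 mark no peak. Kitl (0.882 to 1.10) and Fn1 (1.57 to 2.74) have filled symbols in all 3 replicates, and Bmp4 has 3 symbols of which 2 are open.

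The members open in replicates 1, 2 and 3 numbered 2, 4 and 2 of 7, beside 51.4%, 57.5% and 55.5% of all protein-coding genes. For all 3 replicates it was 2 of 7, beside 50.9%. In the longer list it was 3, 6 and 5 of 7, beside 57.1%, 62.2% and 60.7%, and 3 of 7 in all 3 replicates, beside 55.7%. Kitl and Fn1 were also the members with a base at a deposited false discovery rate (FDR) below 0.001 within 500 bp of a start in all 3 replicates, 2 of 7 beside 51.6%. The median promoter signal of the 7 genes, each gene averaged over the replicates, was 0.220, and that of all protein-coding genes was 0.826. The members' median is the Bmp4 value, which rests on replicate 2. Within replicates 1, 2 and 3 their median was 0, 0.661 and 0.

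The FDR files list stretches of bases below 0.05 whether or not a peak was called there, and they order the unlisted promoters further. Around the Cxcl12 starts 17 bases passed in replicate 1, 383 in replicate 2 and 370 in replicate 3. Around the Bmp4 starts it was 74, 426 and 326 bases. Both genes thus had far fewer listed bases in replicate 1 than in the other two replicates. Igfbp2 had 0, 13 and 184 bases, Ptn had 0, 147 and 16, and Thpo had 0, 87 and 0. For these last 3 genes no base passed in replicate 1. For comparison Kitl had 811, 886 and 922 bases and Fn1 had 813, 998 and 884, with all 3 replicates alike.

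Open hepatoblast, endothelial and stellate markers differed in number between the replicates. Of all protein-coding genes 51.4%, 57.5% and 55.5% were open in replicates 1, 2 and 3, and the marker counts stand beside these shares. The shorter list of replicate 2 has 57314 peaks, against 28209 in replicate 1 and 41319 in replicate 3. Of 8 hepatoblast markers 1, 4 and 0 had an open promoter in replicates 1, 2 and 3, with summed signals of 0.731, 3.77 and 0. The 50% of these markers open in replicate 2 lay near the share of all genes, so that count is not a result about them. Alb and Afp were at 0 in each replicate. The longer list gave Afp 0.731 and 1.19 in replicates 1 and 2, and Alb 0.399 in replicate 3. Of 7 endothelial markers 0, 2 and 1 were open, with sums of 0, 1.19 and 0.603, and Cdh5, Pecam1, Emcn, Stab2 and Lyve1 were at 0 in each. Of 10 stellate and mesenchymal markers 3, 5 and 4 were open, with sums of 6.07, 7.0 and 6.71, and 3 were open in all 3 replicates. These were Col1a1 at 2.24, 2.85 and 2.14, Pdgfra at 2.23, 1.5 and 2.17 and Reln at 1.60, 1.05 and 1.33, of which the last 2 were lowest in replicate 2. Col1a2, Pdgfrb, Ngfr, Acta2 and Dcn were at 0 in each. All 8 erythroid markers were open in each replicate, with sums of 38.8, 64.1 and 36.6. Megakaryocyte markers were open in 1 of 5 genes in each replicate, and macrophage markers in 0, 1 and 0 of 4. All erythroid markers and 3 of 10 stellate and mesenchymal markers were thus open in all 3 replicates of the shorter list, beside 50.9% of all genes. No hepatoblast or endothelial marker was. The longer lists had 2, 7 and 3 hepatoblast and 1, 4 and 2 endothelial markers open, beside 57.1%, 62.2% and 60.7% of all genes. Stellate and mesenchymal markers open there numbered 4, 7 and 5. The hepatoblast marker Ttr (0.731, 0.954 and 0.490) and the endothelial marker Kdr (0.844, 0.778 and 0.603) were open in all 3 longer lists. The part of cell makeup or list length in the replicate 2 peaks of Cxcl12 and Bmp4 was not tested. In whole tissue, few cells with an open promoter and a weakly open promoter in many cells cannot be told apart.

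Base composition did not order the 7 promoters as their signals did. The CpG ratio (observed over expected CpG in 1000 bases around the first start) was 0.753 for Kitl, 0.783 for Cxcl12, 0.689 for Fn1 and 0.771 for Igfbp2, above the median of 0.552 over all genes. It was 0.460 for Thpo, 0.443 for Bmp4 and 0.318 for Ptn, below that median. In the tenth of genes with ratios like those of Kitl, Cxcl12 and Igfbp2, 84.5% had an open promoter in all 3 replicates, and of these 3 members Kitl alone did. For Fn1 that share was 79.6%, for Thpo and Bmp4 it was 48.2%, and for Ptn it was 24.6%.

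Footprints were counted inside the promoter peaks. The Kitl promoter held 4, 7 and 9 footprints in replicates 1, 2 and 3, and the Fn1 promoter 9, 5 and 9. These 2 of 7 members had at least 1 in all 3 replicates, beside 49.6% of all protein-coding genes, and the median over open genes was 5.33 per replicate. Cxcl12 had 4 footprints and Bmp4 had 1, in replicate 2 alone. Footprint lists do not rank their entries, since the deposited threshold is the same, 0.01, in all of them.

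In Kitl the most repeatable footprint lay about 177 bases after the first start, at 100015800-100015814 in replicate 1, 100015800-100015812 in replicate 2 and 100015803-100015811 in replicate 3. It is the capital run of the second Kitl stretch, and none of the 22 motifs searched had at least 4 letters on it. The TATA letters TATAAA, which 13.6% of RefSeq promoters contain, run into its first bases in replicates 1 and 2. The first Kitl stretch holds CCGGAAG, the letters searched for ETS factors, which 8.86% of 32851 RefSeq mouse promoters of 300 bases contain. Footprints of 12 bases in replicate 1 and 20 bases in replicate 2 covered it, and the footprint of replicate 3 lay just after it at 100015752-100015763. The ETS match was thus covered in 2 of 3 replicates.

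In Fn1 the upstream sequence holds the palindrome TGACGTCA 128 bases before the first start. This is the cyclic AMP response element (CRE), which CREB and ATF proteins can bind, and it was searched only after the Fn1 footprints had been seen. It occurs in 1.79% of the RefSeq promoters. A footprint of 17 bases in replicate 1 and one of 14 bases in replicate 2 covered it in the deposited lists, although the replicate 2 footprint fell outside that replicate's narrower peak, and in replicate 3 a footprint at 71653333-71653342 overlapped it by 3 bases. Closer to the start, footprints of 20 bases in replicate 2 and 13 bases in replicate 3 lay on a match to the KLF letters CCNCNCCC and the SP letters GGGCGG, which overlap there. These occur in 49.5% and 35.7% of RefSeq promoters, so many promoters share them. Of the footprints inside the peaks, 1 position recurred in all 3 replicates, 36.5 to 39 bases after the start, and none of the searched motifs lay on it. Over all deposited footprints, 20 of the 220 upstream bases also lay in a footprint in all 3 replicates.

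**Figure D2:**
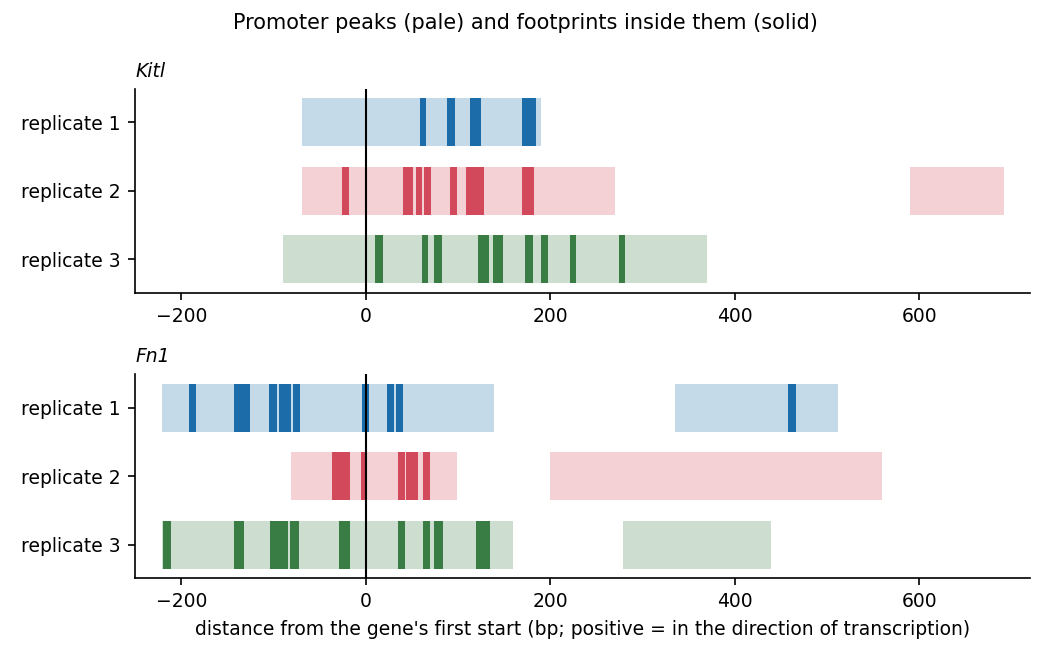
Promoter peaks (pale bars) and the footprints inside them (solid bars) of Kitl and Fn1, one row per replicate, by distance from the first start in bp, positive in the direction of transcription. The Kitl footprints lie mostly after the start, with one near 177 bp in all 3 rows, while the Fn1 footprints lie on both sides of it.

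Of the 7 members 6 have promoters in the RefSeq table for this build, and Fn1 does not. Thpo and Igfbp2 have 2 promoters each there, and the members are counted by gene while the shares are by promoter. The KLF letters were in 5 of the 6, beside 49.5% of all RefSeq promoters, and the SP letters in 5, beside 35.7%. The ETS letters were in Kitl and Bmp4, beside 8.86%, and the NF-Y letters ATTGG in Thpo and Ptn, beside 37.4%. The letters AGATAA of the erythroid factor family that includes Gata1 were in none of the 6, beside 11.2% of all RefSeq promoters. For the liver factors, the letters CAAAGNNCA of HNF4 (6.36% of RefSeq promoters), TGTTTAC of FOXA (3.65%) and TTGCNNAA of C/EBP (10.8%) were also in none. Outside the promoters, the letters AGATAA were in the Cxcl12 upstream distal region, beside 14.1% of the 8810 common distal regions of the shorter list. These matches describe the letters of the searched windows and not binding.

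Distal peaks near the members were few. In the genes and 50 kb on each side the shorter lists held 2, 12 and 8 distal peaks in replicates 1, 2 and 3, and the longer lists held 6, 22 and 15. Thpo alone, 1 of 7, had a common distal region, beside 49% of all protein-coding genes with at least 1. In the longer list Thpo, Cxcl12 and Igfbp2 had one, 3 of 7 beside 63.6%. Kitl, Ptn and Bmp4 had no distal peak in any shorter list.

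The stronger Thpo region, chr16:20702601-20702906, lay 31.8 kb downstream of the first start. It reached 2.46, 3.25 and 2.04 in replicates 1 to 3, on average 2.58 ± 0.612 (SD, n = 3), which is percentile 73.8 of the 8810 common distal regions of the genome. Replicate 2 was the highest, as at the Fn1 promoter. It lies in an exon of Fam131a that is untranslated, and the nearest annotated start, 5.83 kb away, is of Clcn2, so it is assigned to Thpo by distance alone. The stretch around Thpo holds 4 other protein-coding genes, of which 3 had open promoters in all 3 replicates.

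The second Thpo region, chr16:20765281-20765480, lay upstream at -30.9 kb from the first start, between genes. Its signal was 0.882, 0.879 and 0.844 in replicates 1, 2 and 3, a mean of 0.868 ± 0.0211 (SD, n = 3) and percentile 8.68 of the common distal regions. The replicates were nearly equal there. Between this region and the gene, replicate 3 alone had a peak of 0.618 at chr16:20761858-20761970, which the longer list joined with one of 0.310 in replicate 2.

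Cxcl12 had 2 distal regions that were missing from the shorter list of replicate 1. The one at chr6:117166921-117167100, upstream at -1.52 kb from the first start, was at 1.23 in replicate 2 and 1.03 in replicate 3, and the longer list gave 1.05 in replicate 1. The one at chr6:117173985-117174160, 5.54 kb inside the gene in an untranslated exon stretch, was at 0.862 in replicate 2 and 1.10 in replicate 3, and the longer list gave 0.819 in replicate 1. The replicate 1 values were the lowest of the 3 or near the lowest. Over the longer lists the regions averaged 1.10 ± 0.110 and 0.927 ± 0.151 (SD, n = 3), while the Cxcl12 promoter averaged 0.521 with replicate 1 at 0.

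The Igfbp2 regions all lay downstream, and 3 of 4 in the shorter lists were inside the neighbouring gene Igfbp5, whose protein also binds insulin-like growth factors. The region at chr1:72865921-72866100, in an intron of Igfbp5 and 41.5 kb from the Igfbp2 start, was at 1.38 in replicate 2 and 1.03 in replicate 3, with 1.17 in the longer list of replicate 1. Another, at chr1:72854981-72855200 between the genes, was at 1.03 in replicate 2 and 0.663 in replicate 3 and had no peak in either list of replicate 1. Igfbp5 had no open promoter in all 3 replicates either. Fn1 had 4 distal peaks, all in replicate 2 alone, from 0.410 to 0.653. Without replicate 1 the number of common distal regions near the members was 6, with 2 each at Thpo, Cxcl12 and Igfbp2, against 2 with all replicates.

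**Figure D3:**
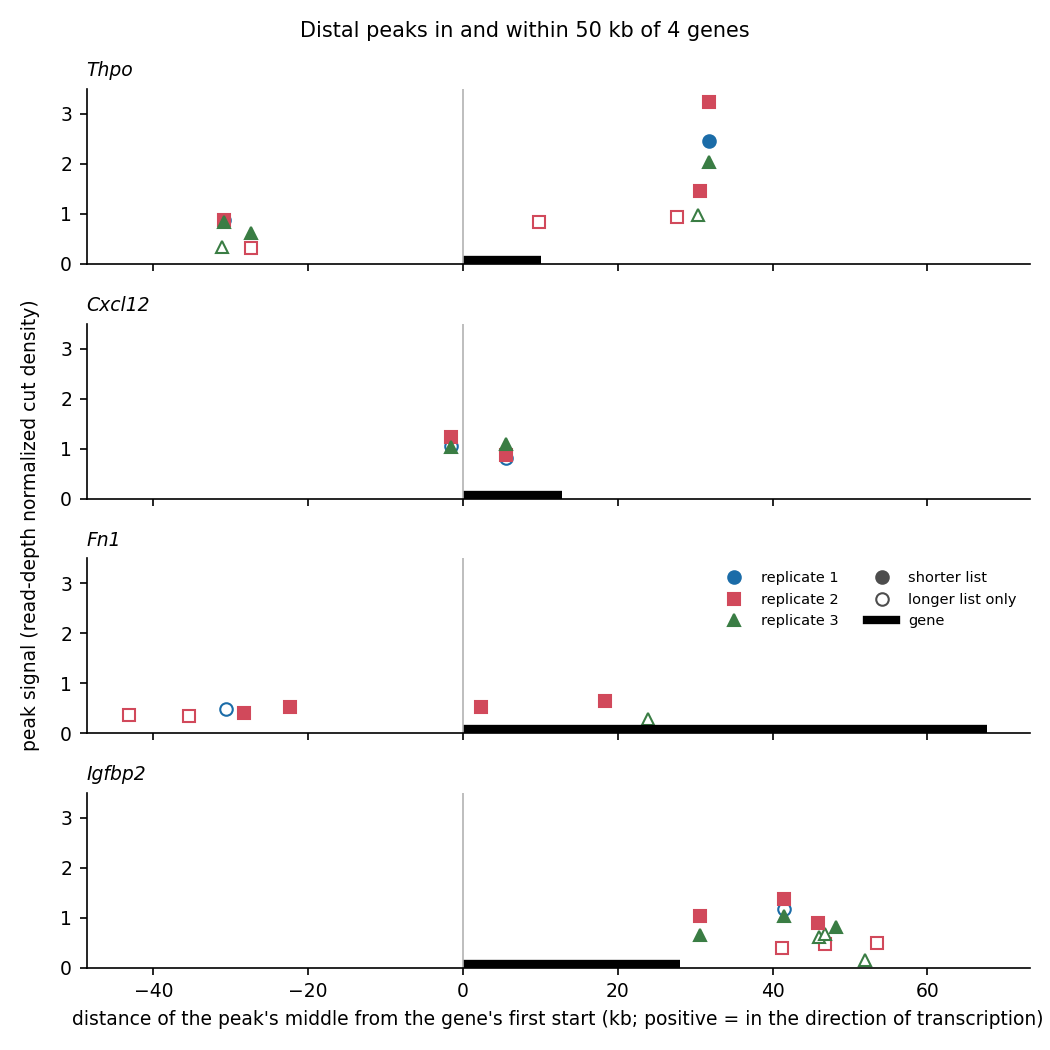
Distal peaks in and within 50 kb of the 4 genes that had any in the shorter list: distance of the peak's middle from the first start in kb (horizontal axis) against signal (vertical axis, cut density normalized to read depth), with the gene as a black bar. Filled symbols are in the shorter list and open ones in the longer list only. Thpo has filled symbols of all 3 replicates at 31.8 kb and at -30.9 kb, and the Fn1 peaks do not recur.

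All 5 regions with peaks of all 3 replicates in the longer list held a CTCF match, 4 of them to the consensus searched first and the Igfbp2 region to the looser form only. Over the genome the first consensus was in 22.7% and the looser form in 38.2% of the 15460 common distal regions of the longer list, and in 3.21% and 8.61% of RefSeq promoters. In the shorter list both Thpo regions held the first consensus, beside 25.4% of 8810 regions. With so few regions these counts describe them and nothing more.

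The matches lay under footprints. At the Thpo downstream region footprints of 25, 27 and 7 bases in replicates 1, 2 and 3 covered at least 4 letters of the match, and at the upstream region footprints of 13, 25 and 29 bases did. At the Cxcl12 upstream region they were 27, 13 and 25 bases wide. The region inside Cxcl12 had them in replicates 2 and 3, of 26 and 29 bases, and none on the match in replicate 1. At Igfbp2 they were 16, 27 and 26 bases wide. Each of the 5 regions thus had a footprint of at least 25 bases on the match in 2 replicates, whereas 7.70%, 10.2% and 8.27% of all footprints of replicates 1, 2 and 3 were that wide and the median width was 10, 10 and 9 bases. Of the longer list's common distal regions 16.8% had the first consensus under a footprint in all 3 replicates, as 3 of the 5 member regions did. The single Thpo peak of replicate 3 between the upstream region and the gene also held the first consensus, under a footprint of 28 bases in that replicate alone.

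**Figure D4:**
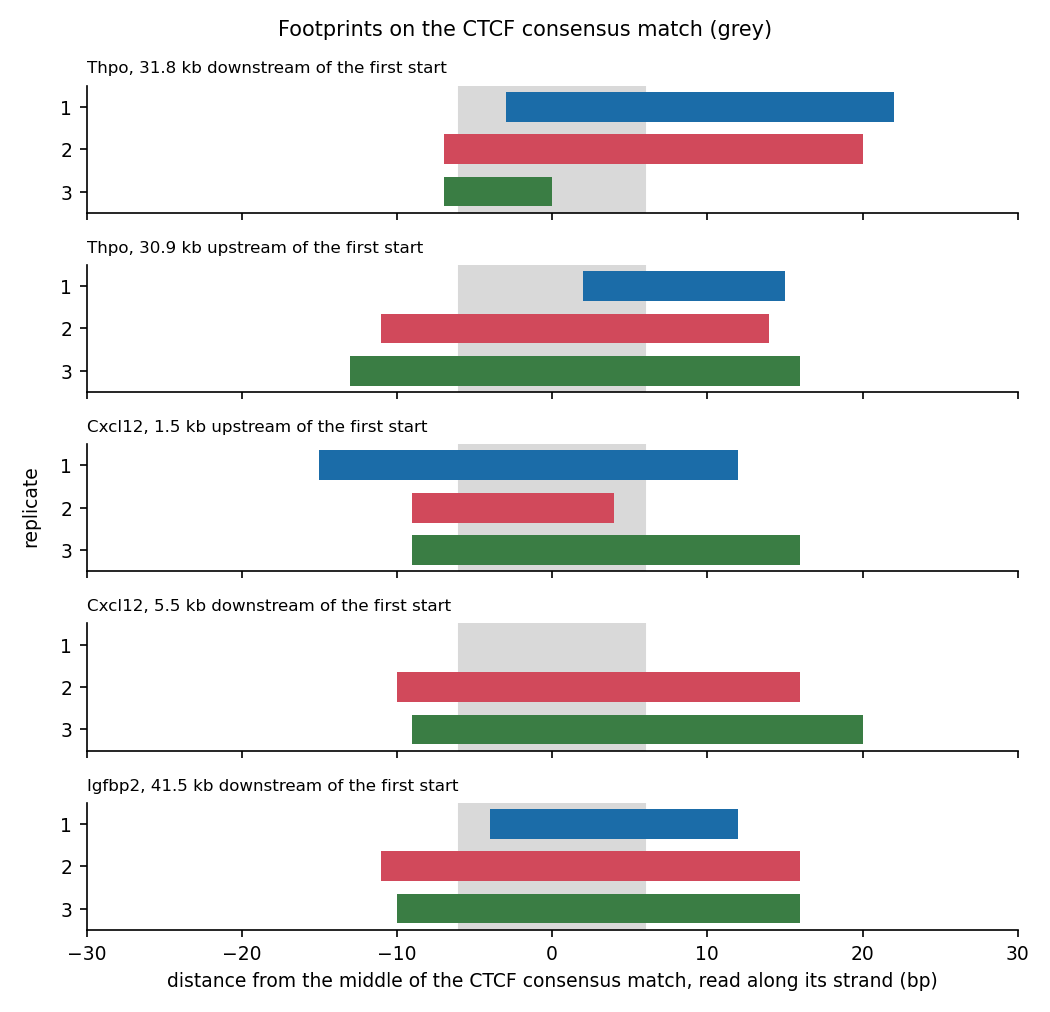
Footprints (bars, one row per replicate) on the CTCF consensus match (grey band) of the 5 regions, by distance from the middle of the match in bp, read along its strand. For Igfbp2 only the match printed above is drawn. Every region has a bar of at least 25 bases in 2 replicates, and the region inside Cxcl12 has none in replicate 1.

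The longer context of the regions that lie outside exons shows where the other footprints fell. Each is the part covered by the peaks of all 3 replicates, on the strand of the gene, and capitals mark bases in a footprint in at least 2 replicates. The Thpo stretch is chr16:20765301-20765460 on the minus strand, and those of Cxcl12, chr6:117166944-117167100, and Igfbp2, chr1:72865944-72866080, are on the plus strand. Capitals made up 33 of 160, 25 of 157 and 27 of 137 bases.
Thpo upstream region: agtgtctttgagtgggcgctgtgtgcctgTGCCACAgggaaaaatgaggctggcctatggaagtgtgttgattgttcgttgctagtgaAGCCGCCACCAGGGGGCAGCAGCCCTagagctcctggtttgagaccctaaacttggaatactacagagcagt
Cxcl12 upstream region: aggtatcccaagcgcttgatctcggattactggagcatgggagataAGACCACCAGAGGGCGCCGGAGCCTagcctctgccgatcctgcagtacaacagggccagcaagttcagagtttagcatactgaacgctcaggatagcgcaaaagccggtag
Igfbp2 downstream region: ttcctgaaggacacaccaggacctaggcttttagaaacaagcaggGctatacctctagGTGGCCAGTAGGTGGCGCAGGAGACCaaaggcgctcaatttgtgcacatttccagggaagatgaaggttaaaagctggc

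Most receptors of these ligands had open promoters. Of 18 receptor genes 14, 14 and 14 were open in replicates 1, 2 and 3 and 13 in all 3, beside the 50.9% of all genes given above. Neither this share nor the next was tested against that of the 7 members. The median of the mean signals over the 18 was 1.60, beside 5.59 for the median gene open in all 3 replicates. Kit (mean 3.72) and Cxcr4 (1.53) lay below 5.59, as Kitl and Fn1 did, and Itga4 (9.97) lay above it. Kit, which binds the Kitl product, was at 3.39, 3.90 and 3.87 and Cxcr4, which binds Cxcl12, at 1.66, 1.28 and 1.65, all 3 replicates open for both. Itga4, the integrin chain through which blood cells hold fibronectin, was the highest at 9.06, 11.6 and 9.20. Of the pleiotrophin receptors, Alk was open in all 3 replicates at 1.58, 2.57 and 1.79, while Ptprz1 and Sdc3 had no promoter peak in either list of any replicate. Itgb3 was open in replicates 1 and 3 only (1.13 and 1.08), and Bmpr1b in replicate 2 only (0.326).

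Some ligands can be set beside a receptor. Kitl and Kit were both open, with Kit higher in each replicate, and Fn1 and Itga4 were both open, with Itga4 higher in each. Of the other integrin chains listed for Fn1, Itgb1 was also higher than Fn1 in each replicate. Itga5, at 1.07, 1.06 and 0.882, and Itgb3 were lower than Fn1 in each, and Itgav was higher in replicate 3 only. For Cxcl12 the receptor was open in all 3 replicates and the ligand in 1. Of the BMP receptors and activin-type receptors that bind Bmp4, Bmpr1a, Bmpr2, Acvr1 and Acvr2a were open in all 3 replicates, from a mean of 0.858 for Acvr1 to 3.35 for Bmpr2. Igf1r, which receives the growth factors that Igfbp2 binds, was at a mean of 2.37 ± 0.418 (SD, n = 3).

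All 13 genes that carry these signals inside the cell were open in each replicate, beside 51.4%, 57.5% and 55.5% of all genes. Their median mean signal was 3.28, also below the 5.59 of the median open gene. Gnai2, a G protein subunit that chemokine receptors use, was the highest at 7.88, 16.5 and 9.06, and Smad7, an inhibitor of the BMP and TGF-beta pathways, was the lowest at 1.99, 1.46 and 1.89. Jak2, a kinase of cytokine signalling, was at a mean of 7.55 ± 1.18 (SD, n = 3). Id1, Id2 and Id3, common targets of BMP signals, were at 4.35 ± 1.08, 3.55 ± 0.749 and 2.71 ± 0.632 (SD, n = 3). Many of these genes act in other pathways as well.

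The other niche signals were open in part. Of 24 further ligand and matrix genes 8, 15 and 12 were open in replicates 1, 2 and 3, which is 33.3%, 62.5% and 50% beside 51.4%, 57.5% and 55.5% of all genes. In all 3 replicates 8 were open, 33.3% beside 50.9%, and in the longer list 12, beside 55.7% of all genes. Their median mean signal was 0.269. The highest was Flt3l, the ligand of the progenitor receptor Flt3, at 5.12, 6.48 and 5.07. Igf2, a growth factor, had no peak in either list, and neither had Il11, Igf1 and Wnt5a. Dll4, Vcam1, Hgf and Tnc were open in replicate 2 only, at 0.778, 0.837, 0.452 and 0.234. Bmp2, a BMP ligand named after its values were seen, was open in replicate 3 only, at 0.520. The replicate 2 share lay near that of all genes, so its count is not a result about these genes.

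**Figure D5:**
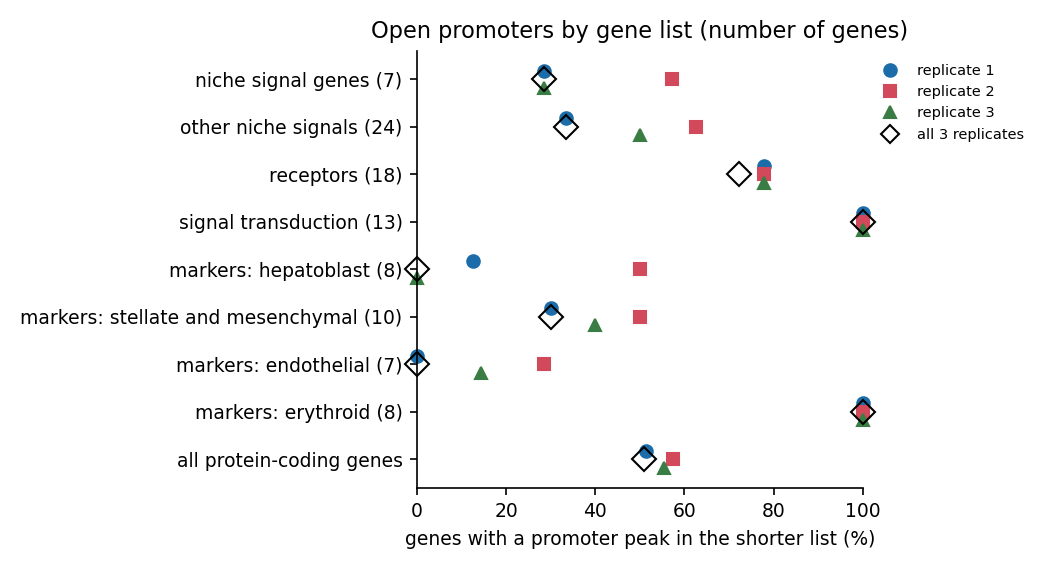
Share of genes with an open promoter (horizontal axis, percent) in each replicate and in all 3 (diamonds) for the 7 members, the related gene lists, the marker lists of 4 cell types and all protein-coding genes. The members and the other niche signals have diamonds at 28.6% and 33.3%, and receptors, signal transduction and erythroid markers at 72.2%, 100% and 100%.

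The genes nearest in promoter signal were sought among 11096 genes open in all 3 replicates and outside the lists, by the largest difference in log2 signal over the 3 replicates. For Kitl they were Pea15a (0.07) and Pcbd1 (0.07), and 403 genes lay within 0.5. For Fn1 they were Gm49673 and Rnaset2a (0.05 each), which have identical values in all 3 replicates, and 452 genes lay within 0.5. Many genes are thus about as near, and the likeness is over 3 libraries only.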

How the data were processed

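The values were made by the authors per sample, not pooled, from filtered alignments to mm10, per the deposited notes beside the files. Aligner, peak caller and footprint caller: not given in the sources used here. Both deposited peak lists carry a signal, the peak's highest cut density, which the authors normalized to read depth. Below 2 all values were whole multiples of a step (0.0126, 0.00837 and 0.00753 in replicates 1, 2 and 3) within 0.02 steps. If libraries were scaled to 1 M cuts and 1 step is 1 cut, the depths were 79.4, 119.5 and 132.7 M cuts; the files used here do not state them. The deposited FDR, a p-value type of measure, is listed below 0.05, and the deposited footprints carry a q-value threshold of 0.01.

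Gene starts were those of GENCODE M21, and bases were read from RefSeq's GRCm38. The files were joined in Python 3.11.15 with numpy 2.4.6 and pandas 2.3.3, and the joining steps were tested on simulated data and recovered every planted feature. A motif was counted on a footprint where at least 4 of its letters lay in it. With 1 group, no test between groups was made. Intervals assume independent cuts.

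The members, the lists (24 other niche signals, 18 receptors, 13 signal transduction genes, 6 sets of cell type markers) and the motifs were chosen with earlier results of these data known. Some listed genes are counted but not reported by name here. Named were all members, for each member open in all 3 replicates the 2 nearest genes by promoter signal, and of each list the highest, the lowest and at most 4 open in some replicates only; receptors set beside their ligands, pathway genes and markers at 0 were named after their values were seen. Alternatives were the longer list, the upper 50% of peaks, other windows, flanks and overlaps, a rescaling to common regions and leaving out each replicate.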

Additional observations from a re-analysis of the deposited data

How the results depend on the processing

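The number of members open in all 3 replicates, and of members with a promoter footprint in all 3, was 2 under every alternative run except the longer list, with 3 for both, and the upper 50% of peaks, with 0 for both. The number of common distal regions near the members moved more, from 2 to 5 with the longer list, 1 with the upper 50% of peaks and 1 with flanks of 25 kb. With flanks of 100 kb it was 3. Leaving out 1 replicate at a time gave 2 to 6, with 6 without replicate 1, which has the shortest list, and 2 without either of the others. Fewer peaks enter with the upper 50% of peaks and more with the longer list; otherwise the cause was not tested. With the longer list the mean promoter signal of Thpo went to 0.231, Ptn to 0.0781, Igfbp2 to 0.116 and Bmp4 to 0.641. The means of Cxcl12 (0.315) and Bmp4 (0.220) rest on replicate 2 and were 0 without it, and Bmp4 was 0 with the first start only. With a peak in replicate 2 alone, the ratio of their SDs (0.546 and 0.382) to their means is fixed by arithmetic. The SDs thus add nothing to the observation that neither peak recurred in the shorter lists. No paired analysis was possible because there is only 1 group. With 3 libraries of unequal depth, a promoter that is not listed may be open below the limit of detection.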
